A study of Mus musculus with 6 samples.

Results

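The type I interferon response genes described here are a list of 39 mouse genes that type I interferon is known to raise. They are taken by symbol, with no threshold on a measured value, although earlier results of these data were known when the list was drawn up. Of these, 37 are among the 32287 features of the gene matrix, and all 37 were among the 9650 genes that passed the filter on low counts, while Mx1 and Mx2 are not analysed here. They were followed across 13 classes of lymph node cells and, within 12 of them, between unimmunized and immunized mice.

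The cells came from CD169Tom mice, with the genotype Cd169Cre/+ Tdtomato fl/fl in every animal, so that a cell that has switched on Siglec1 (CD169), and all cells descended from it, carries the Tomato protein for good. Lymph nodes were taken from 2 unimmunized mice and from 2 mice at day 9 after immunization with hen egg lysozyme (HEL), and CD11b hi Tomato-positive cells were sorted. The study's HEL protocol, not restated for the sorted mice, used HEL linked to an ovalbumin peptide in an adjuvant, after transfer of antigen-specific lymphocytes. A separate hashtag antibody per mouse told the animals apart after pooling, and 2 captures were made by CITE-seq, which counts transcripts as unique molecular identifiers (UMIs) and surface proteins by antibody tags. The label therefore records the history of a cell and not its present CD169, the 4 mice share the same alleles, and the sort sets which cells of a lymph node could be seen.

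Type I interferons signal through a receptor made of Ifnar1 and Ifnar2 to a transcription factor complex that contains Stat2 and Irf9 and binds the interferon-stimulated response element in the promoters of its targets. The targets include sensors of foreign nucleic acid, proteins that bind or degrade viral RNA, membrane proteins that hinder the entry or release of viruses, the ubiquitin-like protein Isg15, and feedback inhibitors. Macrophages that line the lymph node sinuses are known as early sources and targets of interferon, and tingible body macrophages (TBMs) clear dying B cells within the follicle.

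The response element can be read in the promoters of the list. RefSeq promoters (build GRCm38.p6, from 250 bases before to 50 bases after the start of the gene) were matched for 29 of the 39 genes, and were searched for GAAANNGAAA and, as the same motif on the other strand, TTTCNNTTTC, with overlapping matches counted. A match was held by 17 of the 29 promoters, or 58.6%, against 1079 of the 27025 promoters of the table, or 3.99%. The 250 bases before the start are shown for 3 genes that hold a match and on which the values below turn, the ubiquitin-like Isg15 on the minus strand at chr4:156200819-156201068, the RNA-binding Ifit3 on the plus strand at chr19:34583279-34583528 and the chemokine Cxcl10 on the minus strand at chr5:92348890-92349139, and for Irf7, the transcription factor that amplifies interferon production, on the minus strand at chr7:141266425-141266674, which holds none in this window. Capitals mark the bases covered by a match.
Isg15: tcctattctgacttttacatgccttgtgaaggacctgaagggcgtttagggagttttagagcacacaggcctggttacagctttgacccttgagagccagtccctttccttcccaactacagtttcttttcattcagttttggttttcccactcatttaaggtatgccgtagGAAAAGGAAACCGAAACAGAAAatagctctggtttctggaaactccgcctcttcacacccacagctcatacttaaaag
Ifit3: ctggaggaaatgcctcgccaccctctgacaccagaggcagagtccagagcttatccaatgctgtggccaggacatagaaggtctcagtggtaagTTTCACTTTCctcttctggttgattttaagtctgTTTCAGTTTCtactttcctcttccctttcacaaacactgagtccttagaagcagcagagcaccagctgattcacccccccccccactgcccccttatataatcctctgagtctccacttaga
Cxcl10: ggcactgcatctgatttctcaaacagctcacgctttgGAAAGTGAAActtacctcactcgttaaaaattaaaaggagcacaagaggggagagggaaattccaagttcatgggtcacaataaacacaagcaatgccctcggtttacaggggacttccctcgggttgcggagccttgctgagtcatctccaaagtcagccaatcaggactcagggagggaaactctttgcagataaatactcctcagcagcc
Irf7: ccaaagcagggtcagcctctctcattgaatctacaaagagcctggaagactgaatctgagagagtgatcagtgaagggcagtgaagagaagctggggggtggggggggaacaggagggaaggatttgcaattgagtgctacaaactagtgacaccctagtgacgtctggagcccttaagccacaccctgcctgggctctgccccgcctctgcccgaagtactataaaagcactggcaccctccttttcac
The capitals of Isg15 join 3 overlapping matches, those of Ifit3 are 2 matches and that of Cxcl10 is 1. A match describes the letters and does not show that a factor was bound. Several members are neighbours in the genome, since Ifit1, Ifit2, Ifit3 and Ifit3b lie on chromosome 19 and Oas1a, Oas2, Oas3, Oasl1 and Oasl2 on chromosome 5. How the counting treated reads that fit near-identical copies such as Ifit3 and Ifit3b was not tested.

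After hashtag assignment and removal of cells with over 25% mitochondrial UMIs, 12139 cells remained, of which 5926 passed the marker gates of the 13 classes and 6126 passed none. No member was used as a marker, and in each class between 2 and 7 of its own markers stood among its 10 genes with the largest fold over the other cells, with a marker of another class, Cd209d, only in the Cd209a DC-like class. The gates select cells by these markers, so their rank follows from the gating and is no separate check of the classes. The Ly-6C antibody, which was not used to gate, was highest in the classical monocyte-like cells. The Ly-6C gene Ly6c2 was left out of the markers because interferon raises it. The antibody is therefore no check of this class that is separate from the interferon genes. The gated cells of a class and mouse were summed into 50 libraries of 13146 to 6160185 UMIs, the smallest being the 5 neutrophil-like cells of unimmunized mouse 2, and the classical monocyte-like library of that mouse held 6 cells and 66219 UMIs. Inflammatory macrophage-like cells gave libraries only in the immunized mice, with 22 and 250 cells, so immunization was not tested in them, and barcode sequences found in both captures (621 sequences, 1242 barcodes) had been left out. Values per mouse are given below as CPM (UMIs of the gene scaled to 1000000 UMIs of the library) in the order unimmunized mouse 1, unimmunized mouse 2, immunized mouse 1, immunized mouse 2.

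The 37 genes took the largest share of the transcriptome in classical monocyte-like cells, at 165.8 ± 48.3 of every 10000 UMIs (mean ± SD over mice, n = 4). Their share in the 4 mice was 169, 231.5, 143.2 and 119.3, and every one of these exceeded the highest share of the nonclassical monocyte-like cells, 113.7. Nonclassical monocyte-like cells had 104.6 ± 10.9, neutrophil-like cells 94.6 ± 39.7, TBM-like cells 76.2 ± 18.4 and Cd209a DC-like cells 67.3 ± 12.4. Inflammatory macrophage-like cells followed with 54.8 ± 1.6 (n = 2) and alpha-beta T cell-like cells with 45.4 ± 10.4. The share was lowest in NK cell-like cells, 21.0 ± 3.4, and in innate-like T cell-like cells, 14.3 ± 3.2. Between these lay cDC1-like cells (32.6 ± 16.7), medullary sinus macrophage-like (MSM-like) cells (31.8 ± 11.1), B cell-like cells (31.1 ± 12.9) and migratory DC-like cells (27.5 ± 19.7), whose means differ from each other by less than their spread between mice. The means of TBM-like and Cd209a DC-like cells also differ by less than that spread. Neutrophil-like cells exceeded both of these classes in each mouse, but varied more between mice than either.

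**Figure D1:**
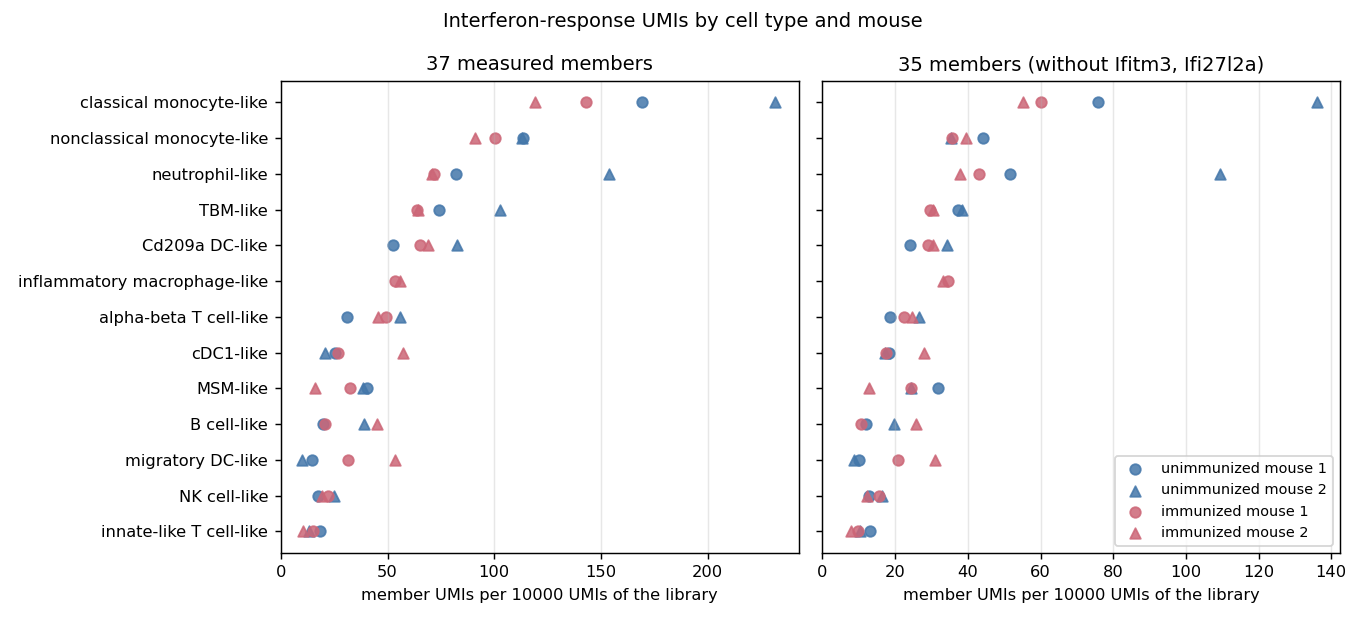
Share of UMIs from the 37 measured interferon-response genes, per 10000 UMIs, in each cell class and mouse, with all members (left) and without Ifitm3 and Ifi27l2a (right). Each point is 1 mouse. Classical monocyte-like cells lie highest in both panels, and innate-like T cell-like cells have the lowest mean.

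Ifitm3 and Ifi27l2a supplied a large part of these UMIs. Without them classical monocyte-like cells still had the highest share, 81.9 ± 37.2 per 10000, followed by neutrophil-like cells with 60.5 ± 33.2 and nonclassical monocyte-like cells with 38.6 ± 4.05, and TBM-like and inflammatory macrophage-like cells had 33.9 ± 4.55 and 33.8 ± 0.888. The 2 captures gave 135.1 and 136.6 per 10000 in the pooled classical monocyte-like cells and 18.1 and 16.2 in the innate-like T cell-like cells. They differed most in neutrophil-like cells, with 65.8 from 37 cells and 106.7 from 23 cells, so that the place of this class was level with TBM-like cells in one capture and above nonclassical monocyte-like cells (101.1) in the other, and cDC1-like cells had 37.3 and 28.6. In single cells the median share of classical monocyte-like cells was 148.1, 212.2, 127.5 and 100.8 per 10000 in the 4 mice, and the 10th percentile of unimmunized mouse 1, 67.6, was above the 90th percentile of its innate-like T cell-like cells, 29.1. Neutrophil-like medians were only 61.6, 50.3, 54.1 and 62.3, with 90th percentiles of 343.6, 415.6, 258.3 and 160.9, so the highest cells weighed strongly on their share.

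**Figure D2:**
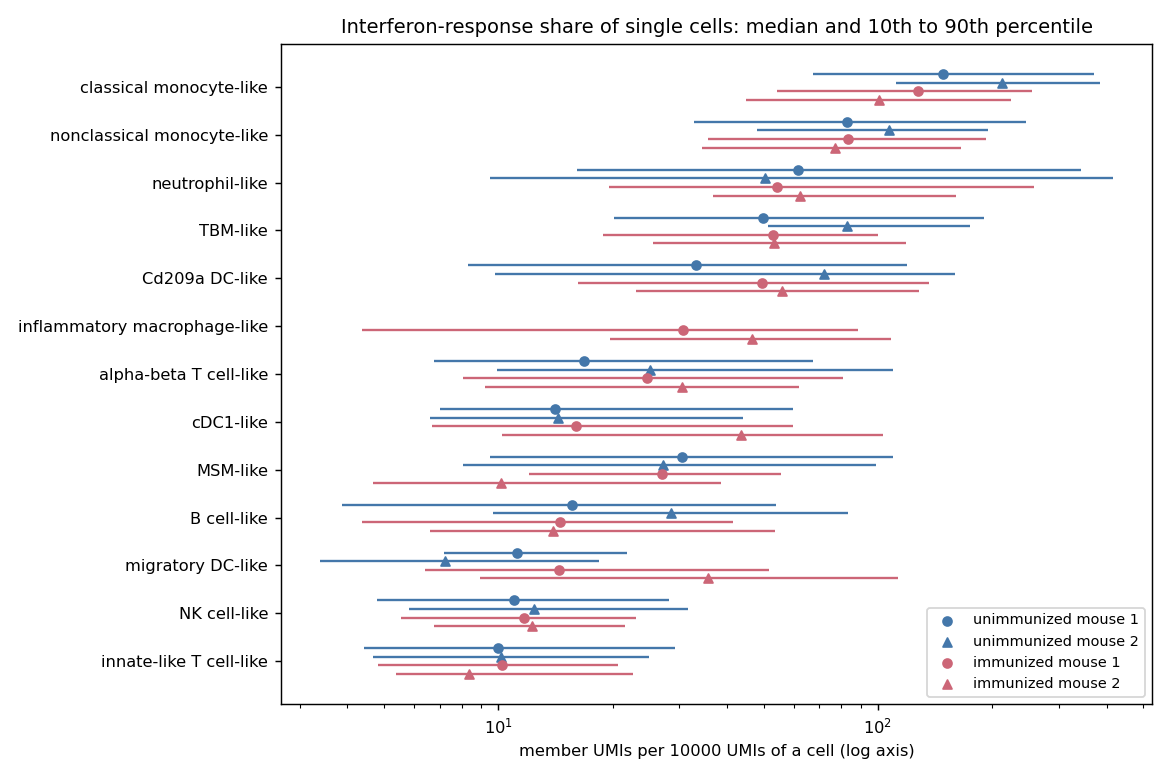
Share of member UMIs in single cells, per 10000 UMIs of a cell on a log axis, by class and mouse. Symbols are medians and lines run from the 10th to the 90th percentile. The classical monocyte-like medians of 100.8 to 212.2 lie above those of the other classes of the same mouse, and the migratory DC-like cells of immunized mouse 2 span 8.92 to 112.8.

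Most single members were highest in the same class. By mean CPM over mice, 24 of the 37 members were highest in classical monocyte-like cells and 9 in neutrophil-like cells, whose 60 cells came from the 4 mice as 17, 5, 23 and 15. The remaining members were each highest elsewhere: Usp18 in migratory DC-like, Bst2 in MSM-like, Ifi44 in cDC1-like and Cxcl10 in inflammatory macrophage-like cells. Within single mice the members highest in classical monocyte-like cells numbered 22, 24, 24 and 22, and 34, 34, 37 and 32 of the 37 were higher in classical than in nonclassical monocyte-like cells of the same mouse.

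**Figure D3:**
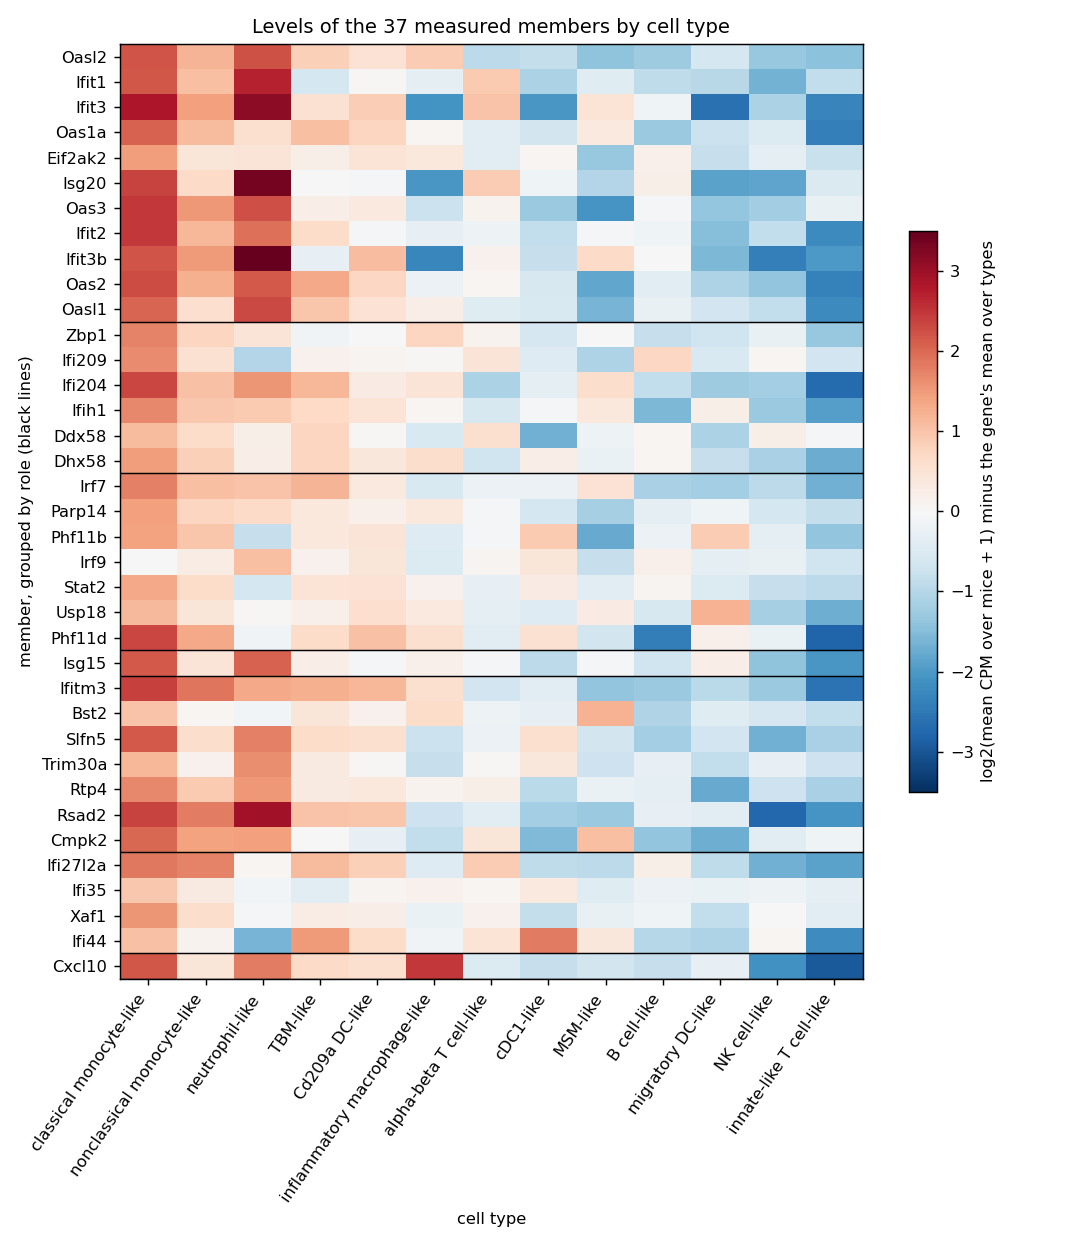
Log2(mean CPM over mice + 1) of each member (rows, grouped by role) in each cell class (columns), minus the mean of that member over classes, with red above and blue below that mean. The columns of classical monocyte-like and neutrophil-like cells are mostly above the row mean, and the innate-like T cell-like column is mostly below it.

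Each class was then compared with the unweighted mean of the other classes by edgeR's quasi-likelihood test over all 9650 genes. Benjamini-Hochberg adjusted p under 0.05 was the call. The mean was taken over log-scale levels, so classes near 0 pull it below the plain mean of CPM. In classical monocyte-like cells 36 of the 37 members were called higher and 0 lower, against 12.5% of all genes called higher, and the median log2 fold change was 1.99 for the members and 0.02 for all genes. DESeq2 also called 36 higher. The exception was Irf9, the DNA-binding partner of Stat2, with 42.4, 45.3, 73.9 and 54.6 CPM and a log2 fold change of -0.05 (adjusted p = 1). Leaving out any one mouse left between 32 and 36 members called.

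All 11 RNA-binding effectors and RNA-degrading enzymes were called higher in classical monocyte-like cells, with a median log2 fold change of 2.55. Ifit3, which binds foreign RNA together with Ifit1, had 236.7, 347.3, 136.7 and 91.5 CPM, and its log2 fold change was 2.99 ± 0.26 (SE, adjusted p = 1.41e-11). Oas2, which makes the second messenger that activates RNase L, had 72.3, 90.6, 43.2 and 24.6 CPM (log2 fold change 2.95 ± 0.29). Both were higher in the unimmunized than in the immunized mice of this class, without overlap. Oasl2, a relative of the Oas enzymes, had 259.1, 634.3, 268.3 and 253.9 CPM and a log2 fold change of 2.44 ± 0.21, and Ifit1, which recognises RNA that lacks a host cap, had 174.4, 302, 160.2 and 142 CPM and a log2 fold change of 2.32 ± 0.30. The Oasl2 levels of 3 mice lay close together, and that of unimmunized mouse 2, from 6 cells, stood above them.

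All 6 sensors and all 7 membrane and antiviral restriction genes were also called higher in classical monocyte-like cells. Zbp1, a sensor of Z-form nucleic acid, had 279, 664.5, 314.8 and 394.4 CPM (log2 fold change 1.87 ± 0.23), and Ifi209, of the family of DNA sensors that includes Aim2, had 386.2, 573.9, 323.7 and 260.2 CPM (1.68 ± 0.17). Ifitm3, which hinders the fusion of viruses with endosomes, had 5740, 6086, 4962 and 4126 CPM and a log2 fold change of 2.72 ± 0.23 (adjusted p = 1.25e-11). Its spread over mice was small beside its distance to the innate-like T cell-like cells, where it had 246.8, 106.2, 216.9 and 82.6 CPM. Rsad2 (viperin), an enzyme that makes a chain terminator of viral RNA synthesis, had 144.5, 90.6, 61.4 and 42.5 CPM and the largest log2 fold change of the class, 3.00 ± 0.32. Bst2 (tetherin), which holds budding viruses on the cell, had 575.5, 755.1, 461.7 and 389.9 CPM (1.07 ± 0.16).

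Of the signalling and transcription members 6 of 7 were called higher in classical monocyte-like cells. Irf7 had 505.8, 755.1, 380.2 and 248.1 CPM (log2 fold change 1.95 ± 0.24), and Parp14, an ADP-ribosyltransferase, had 219.2, 619.2, 260.1 and 281.8 CPM (1.47 ± 0.19). Isg15 had 672.7, 1797, 526.3 and 546.5 CPM (2.25 ± 0.23), and at least 1 Isg15 UMI was seen in 77.6% of these cells on average over mice against 17.8% of innate-like T cell-like cells. With every cell thinned to 1000 UMIs these became 39.4% ± 18.2 and 5.35% ± 4 (SD, n = 4), and since no class is known to lack Isg15, the part of free RNA in the lower value was not tested. Ifi27l2a, a small hydrophobic protein of the Ifi27 family, had 3573, 3458, 3342 and 2279 CPM (2.05 ± 0.20), and Ifi35, a partner of the transcription regulator Nmi, had 117.1, 211.4, 109.4 and 115.1 CPM (0.87 ± 0.19). Cxcl10, the chemokine that draws Cxcr3-bearing lymphocytes, had 450.9, 1616, 470 and 721 CPM (2.74 ± 0.38), so that the levels of Isg15 and Cxcl10 were far more spread than that of Ifi27l2a, with unimmunized mouse 2 the highest.

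Nonclassical monocyte-like cells, the patrolling monocytes of the blood, came next: 29 of 37 members were called higher and 0 lower, against 16.6% of all genes, with a median log2 fold change of 1.17 (0.09 for all genes). Ifitm3 had 3886, 3856, 3879 and 2993 CPM (log2 fold change 2.23 ± 0.24), Rsad2 83.8, 77.1, 33.6 and 33.9 CPM (2.31 ± 0.31), and Oas2 40.6, 28, 26.1 and 16.4 CPM (2.05 ± 0.27). Ifitm3 was thus nearly level over 3 mice, whereas Rsad2 was higher in both unimmunized mice. The 8 members not called were Isg15, Ifi35, Irf9, Cxcl10, Usp18, Bst2, Trim30a and Ifi44, and Isg15 had 265.7, 185.6, 279 and 354.3 CPM, all below the lowest classical monocyte-like value, 526.3.

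In neutrophil-like cells 15 members were called higher and 0 lower, against 5.16% of all genes, and 8 of them were RNA-binding effectors and RNA-degrading enzymes. The 3 largest were Ifit3b (197.6, 152.1, 133.4 and 19.2 CPM, log2 fold change 4.18 ± 0.52), Rsad2 (197.6, 152.1, 148.2 and 14.4 CPM, 3.35 ± 0.51) and Ifit1 (472.1, 228.2, 355.8 and 57.7 CPM, 2.86 ± 0.40). Immunized mouse 2 was the lowest for each, and its neutrophil-like cells also held the most Lyz2, a myeloid granule and lysosome gene, with 26410 CPM against 6770 to 9473 in the others, and a median of 15080 UMIs per cell against 2083 to 3260. The part of these differences in the result was not tested. The median over all genes was -0.41 by edgeR's scaling and 0.00 by that of DESeq2, which called 18 members higher, and without unimmunized mouse 1 edgeR called 4.

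TBM-like cells had 14 members called higher and 0 lower, against 8.5% of all genes, and Cd209a DC-like cells 13 and 0, against 12.1%. In TBM-like cells the largest were Oas2 (31.4, 48.6, 19.4 and 18.1 CPM, log2 fold change 1.93 ± 0.38), Ifi44 (17.9, 64.8, 15.5 and 15.3 CPM, 1.84 ± 0.53) and Ifitm3 (1696, 3254, 2001 and 2368 CPM, 1.49 ± 0.26). Ifi44 was called in TBM-like, cDC1-like and classical monocyte-like cells. In Cd209a DC-like cells Ifitm3 (1547, 2583, 2213 and 2524 CPM, 1.49 ± 0.26), Oas2 (16.3, 24.9, 18.6 and 17.3 CPM, 1.42 ± 0.32) and Rsad2 (29.3, 56.9, 24.5 and 16.7 CPM, 1.39 ± 0.37) led, all with unimmunized mouse 2 on top. The plain means over all classes, 18.15 CPM for Oas2 and 30.45 CPM for Rsad2, lie within the range of these Cd209a DC-like values. Their folds thus stand against a log-scale mean and not against the plain mean. The TBM-like count fell to 8 without either unimmunized mouse, and the Cd209a DC-like count was 8 without unimmunized mouse 1, 6 without unimmunized mouse 2, 22 without immunized mouse 2 and 6 by DESeq2.

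Inflammatory macrophage-like cells, marked by Nos2 and Acod1, had 4 members called higher and 0 lower, against 9.08% of all genes higher. Cxcl10 had 1208 and 779.2 CPM in the 2 immunized mice, and its log2 fold change of 2.42 ± 0.50 stood apart from Oasl2 (107.6 and 174.6 CPM, 1.13 ± 0.29) and Dhx58, the regulator Lgp2 of the RNA sensors (34.2 and 36.7 CPM, 0.93 ± 0.31). The other called member was Bst2, and DESeq2 called 0 of the 37, with 6 higher (15.5% of all genes) and 2 lower (6.26%) by edgeR at an unadjusted p under 0.05, shares near the background. The count was 2 without immunized mouse 2 or without unimmunized mouse 1. A list of 18 genes for interferon-gamma, another interferon with its own receptor, holds Ifng, Ifngr1, Ifngr2 and genes that interferon-gamma is best known for. Of these 18, 9 were called higher in these cells, among them Gbp5 (log2 fold change 1.92), Cxcl9 (1.92) and Iigp1 (1.75). Whether gating on Nos2 and Acod1 itself selects cells with high levels of this list was not tested. Having no unimmunized library, the class was compared only with the immunized libraries of the other classes.

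Among the other dendritic cells more members were called lower than higher. In cDC1-like cells, the cross-presenting DCs marked by Xcr1, 6 members were called higher, near the background of 14.2% of all genes, and 8 lower (4.13%). Ifi44 had 38.3, 49.3, 16.8 and 41.3 CPM (log2 fold change 2.55 ± 0.39), and Phf11b and Phf11d, of a family of zinc finger proteins, were also higher (1.09 ± 0.20 and 0.89 ± 0.32). Ifit3 was lower with 1.5, 7.04, 0 and 15.3 CPM (-2.63 ± 0.58), as were the RNA sensor Ddx58 (Rig-I, 8.25, 7.04, 6.01 and 33 CPM, -2.0 ± 0.31) and the nucleotide kinase Cmpk2 (6.75, 0, 0 and 3.54 CPM, -1.78 ± 0.54). Immunized mouse 2 was the highest for Ifit3 and Ddx58, and its cDC1-like cells also held the most Lyz2, 12980 CPM against 1144 to 5342. The count of members higher was 3 without unimmunized mouse 1, and that of members lower was 1 without unimmunized mouse 1, 3 without unimmunized mouse 2 or immunized mouse 1 and 13 without immunized mouse 2.

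In migratory DC-like cells, which have left a tissue for the node and are marked by Ccr7 and Fscn1, 17 members were called lower (9.08% of all genes) and 2 higher (20.5%). Isg20, an exonuclease of RNA, had 0, 0, 12.9 and 6.33 CPM (log2 fold change -4.25 ± 0.91), Ifit3b 0, 0, 4.91 and 3.62 CPM (-3.54 ± 1.27) and Ifit3 1.17, 0, 6.75 and 6.78 CPM (-3.31 ± 0.64). All 3 were at or near 0 in the unimmunized mice and low in the immunized ones. Usp18, the protease that removes Isg15 from proteins and restrains the interferon receptor, went the other way with 102.5, 78.7, 82.3 and 36.6 CPM and a log2 fold change of 1.63 ± 0.23 (adjusted p = 1.52e-07), and Phf11b had 108.3, 78.7, 181.1 and 157.3 CPM (1.13 ± 0.20). Without unimmunized mouse 1 the members lower numbered 3 and those higher 1, and without unimmunized mouse 2 or immunized mouse 1 the members lower numbered 9.

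MSM-like cells, which carry Marco and Cd209b, had 3 members called higher, a share below the 18.3% of all genes, and 7 lower, near the 17.4% of all genes. Bst2 stood out with 730.4, 777, 741.7 and 299.9 CPM and a log2 fold change of 1.32 ± 0.17 (adjusted p = 2.89e-08), its highest mean of any class, although the 299.9 rests on 16 UMIs. The DNA sensor Ifi204 had 180.5, 148.8, 151.4 and 93.7 CPM (0.90 ± 0.32). Cmpk2 had 65.7, 0, 17.3 and 0 CPM (1.51 ± 0.48), with 40 of its 48 UMIs from unimmunized mouse 1, and its sign turned without that mouse and without immunized mouse 1 (-1.64). Lower were Oas3 (16.4, 0, 2.16 and 0 CPM, -2.19 ± 0.70), Phf11b (31.2, 33.1, 15.1 and 0 CPM, -2.0 ± 0.39) and Oasl2 (46, 33.1, 15.1 and 18.7 CPM, -1.49 ± 0.41). The count higher was 1 without unimmunized mouse 1 or immunized mouse 1 and 7 without immunized mouse 2, and the count lower was 0 without unimmunized mouse 1.

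In the lymphoid classes the count of members called lower ranged from 3 to 25. The authors listed the B cells and NKT cells of this CD11b and Tomato sort as contaminating. How far these classes stand for the lymphocytes of the node was not tested. Innate-like T cell-like cells, marked by gamma-delta receptor genes, had 25 members called lower (13.3% of all genes) and 0 higher, with a median log2 fold change of -1.76. Ifitm3 (-2.72 ± 0.39), Ifi204 (26.5, 3.12, 16.8 and 7.5 CPM, -2.56 ± 0.44) and Cxcl10 (48.5, 9.37, 24.3 and 7.5 CPM, -2.55 ± 0.67) were the lowest. NK cell-like cells had 19 called lower (9.66%) and 0 higher, led by Ifi27l2a (170.5, 415.4, 267.2 and 231.2 CPM, -1.92 ± 0.29), Cxcl10 (24.2, 28.2, 91.9 and 18.4 CPM, -1.90 ± 0.60) and Slfn5 (33.7, 40.3, 45.4 and 25.7 CPM, -1.87 ± 0.27). Slfn5, of the Schlafen family, was level over the mice and below every classical monocyte-like library. Unimmunized mouse 1 gave most of these cells: without it the counts lower were 12 and 3, and without immunized mouse 1 they were 15 and 11.

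B cell-like cells had 11 members called lower (10.1% of all genes) and 1 higher (18%). The one higher was Ifi209, with 187.8, 253.5, 176.8 and 194.2 CPM (log2 fold change 0.78 ± 0.19), and B cell-like cells had its second highest mean after classical monocyte-like cells. Phf11d (0, 0, 4.31 and 5.71 CPM, -4.73 ± 0.98), the RNA sensor Ifih1 (Mda5, 7.42, 0, 9.34 and 40 CPM, -2.11 ± 0.42) and Oasl2 (2.47, 31.7, 14.4 and 77.1 CPM, -2.07 ± 0.43) were the lowest, with immunized mouse 2 the highest for each of the 3. Without unimmunized mouse 1 the count lower was 1 and without immunized mouse 1 it was 6.

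Alpha-beta T cell-like cells had 4 members called higher (20.5% of all genes) and 3 lower (10.4%), neither above its background. Isg20 had 29.1, 47.3, 27.4 and 49.6 CPM (log2 fold change 1.20 ± 0.33), Ifit1 78.6, 98.8, 39.3 and 108.5 CPM (1.00 ± 0.33) and Ifi27l2a 962, 1924, 1962 and 1577 CPM (0.98 ± 0.22). Every Ifi27l2a library of these cells was above every one of the NK cell-like cells. Lower were Ifi204 (28, 64.4, 46.4 and 33.1 CPM, -1.17 ± 0.36), Dhx58 (10.8, 21.5, 13.1 and 9.19 CPM, -0.93 ± 0.34) and Oasl2 (43.1, 43, 35.7 and 36.8 CPM, -0.85 ± 0.29). Without unimmunized mouse 2 the count higher was 1, and without unimmunized mouse 1 the count lower was 0.

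The ligands, receptors and sensors around the list were read the same way. Of 20 listed genes of type I and III interferons themselves 17 had no UMI in the 12139 cells, which allows up to 0.0242 CPM for each by counting error alone, and the others had 13 UMIs together, so none was tested. The receptor chains Ifnar1 and Ifnar2 were highest in TBM-like cells, with 143.6, 113.3, 152.8 and 99.9 CPM for Ifnar1 (log2 fold change 1.23 ± 0.20) and 219.8, 291.4, 239.7 and 215.6 CPM for Ifnar2 (1.26 ± 0.16). Both were also called higher in classical (0.88 and 0.945) and nonclassical (0.83 and 0.83) monocyte-like cells, and both were called lower in innate-like T cell-like cells (-1.47 and -1.07). The kinase Jak1, which sits on the receptor, was called lower in classical monocyte-like cells (-0.54). Of 13 genes of nucleic acid sensing upstream of interferon 7 were called higher and 0 lower in each of the monocyte-like classes, against 12.5% of all genes higher in classical and 16.6% in nonclassical monocyte-like cells, with the RNA receptor Tlr7 the largest (2.38 ± 0.23 in classical and 2.74 ± 0.19 in nonclassical monocyte-like cells). In innate-like T cell-like cells the same list had 3 higher, near the 22.4% of all genes called higher there, and 6 lower (13.3%).

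Immunization was tested within each class by the same fit, immunized against unimmunized, with 2 mice on each side. In 11 of the 12 classes edgeR and DESeq2 called 0 of the 37 members, and few genes of any kind were called by edgeR in either direction: 0% in NK cell-like, TBM-like and innate-like T cell-like cells, 0.0104% in classical monocyte-like, 0.0207% in nonclassical monocyte-like, in MSM-like and in B cell-like, 0.0518% in alpha-beta T cell-like, 0.0622% in neutrophil-like, 0.166% in Cd209a DC-like and 0.415% in cDC1-like cells. At an unadjusted p under 0.05 edgeR had 8 members higher in cDC1-like cells (5.25% of all genes), 4 in B cell-like (2.87%), 3 in neutrophil-like (7.12%) and 1 each in classical monocyte-like (5.74%), Cd209a DC-like (3.63%) and alpha-beta T cell-like cells (2.57%). At that threshold 8 were lower in MSM-like cells (4.93% of all genes), 7 in classical monocyte-like (2.61%), 2 each in nonclassical monocyte-like (3.61%) and innate-like T cell-like (1.97%) and 1 each in TBM-like (1.63%), neutrophil-like (2.9%) and Cd209a DC-like cells (4.2%). NK cell-like cells had 0 in either direction. The MSM-like libraries held 284, 26, 135 and 17 cells, and the part of small libraries in the MSM-like values was not tested. The neutrophil-like counts and those of 1 member, and of the nonclassical monocyte-like members lower, are near these shares. The lone values of alpha-beta T cell-like and Cd209a DC-like cells that were higher were both Cxcl10, with 18.3, 12.9, 293 and 195 CPM (log2 fold change 3.94 ± 1.13, adjusted p = 0.296) and 94.2, 39.1, 346 and 575 CPM (2.68 ± 0.89, adjusted p = 0.348). In both classes the immunized mice were above the unimmunized ones without overlap. In alpha-beta T cell-like libraries C1qa had 17.2, 8.59, 42.9 and 114 CPM and Lyz2 2435, 4734, 4385 and 5133 CPM. In cDC1-like cells C1qa had 69, 45.7, 411.1 and 1584 CPM and Lyz2 2202, 1144, 5342 and 12980 CPM. In B cell-like cells they had 143.4, 10.6, 28 and 60 and 1970, 3813, 2252 and 7941 CPM. Immunized mouse 2 was highest in all but B cell-like C1qa. The part of other cells, also with immunized mouse 2 alone, was not tested.

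Without immunized mouse 1 the immunization test called 12 members higher in cDC1-like cells (3.62% of all genes in that fit) and 5 in B cell-like cells (0.635%), with immunized mouse 2 then alone and assumed to vary like the other libraries. It called 4 lower in classical monocyte-like cells (1.17%), 3 in neutrophil-like (0.559%), 2 in nonclassical monocyte-like (1.01%) and 2 in Cd209a DC-like cells (1.6%). In nonclassical monocyte-like (1.03%), alpha-beta T cell-like (0.731%) and Cd209a DC-like cells (2.56%) it called 1 higher, as it did in alpha-beta T cell-like (0.0711%) and Cd209a DC-like cells (0.294%) without immunized mouse 2.

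The direction of the members can still be described without a test. Over the 12 classes, both immunized mice were above both unimmunized mice in 72 of 444 pairs of member and class (16.2%, against 17.4% of all genes) and below them in 129 (29.1%, against 20.1%). Classical monocyte-like cells made up the largest part: 30 of the 37 members were lower in both immunized mice (19.6% of all genes), with a median log2 fold change of -0.46. Slfn5 had 610, 966, 335 and 205 CPM there (-1.19 ± 0.37, adjusted p = 0.436) and Isg20 99.7, 227, 57.1 and 46.3 CPM (-1.12 ± 0.47, adjusted p = 0.524). Unimmunized mouse 2, the highest for most of these genes, gave 6 cells to the class.

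**Figure D4:**
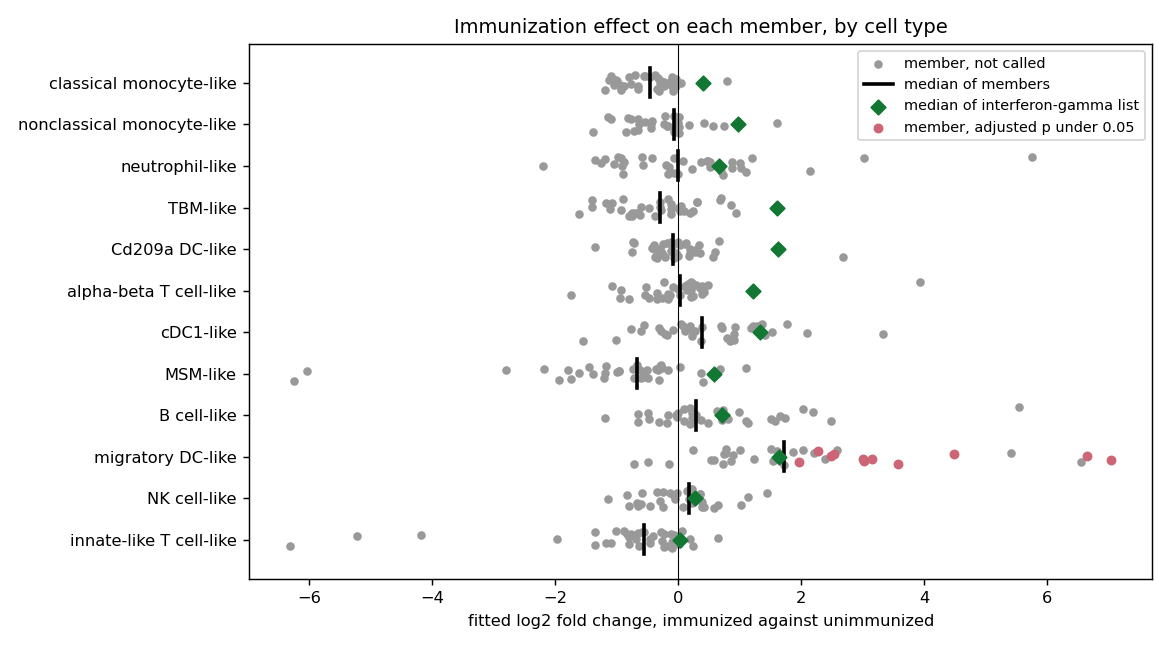
Log2 fold change of immunized against unimmunized mice for the 37 members (points, red where the adjusted p was under 0.05) in each class, with the member median as a bar and the median of the interferon-gamma list as a green diamond. The member median lies at 1.73 in migratory DC-like cells and between -0.67 and 0.39 in the other classes.

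The interferon-gamma list, kept as a comparison, holds no member but includes the ligand gene Ifng and the receptor genes Ifngr1 and Ifngr2. Whether the genes of either list answer only to type I interferon or only to interferon-gamma was not tested, so the lists do not separate these interferons. Of its 18 genes over the same classes, 97 of 216 pairs (44.9%, against 17.4% of all genes) were above in both immunized mice. Below were 9 (4.17%, against 20.1% of all genes). These pairs too come from the same 4 mice and are not independent. In every class but innate-like T cell-like cells, the summed list was higher in immunized mouse 2 than in immunized mouse 1. The median log2 fold change of the list was highest in migratory DC-like (1.64), Cd209a DC-like (1.62) and TBM-like cells (1.60). It was lowest in classical monocyte-like (0.41), NK cell-like (0.28) and innate-like T cell-like cells (0.025). In classical monocyte-like cells 1 of the 18 genes was above in both immunized mice and 2 below, against 2292 and 1890 of all 9650 genes. In innate-like T cell-like cells 2 were above and 4 below, near the shares of all genes (1086 and 2456 of 9650). Summed, the list had 11.5, 13.8, 20.4 and 38.4 UMIs per 10000 in Cd209a DC-like cells and 17.6, 12.5, 24.9 and 42.6 in TBM-like cells, whereas the type I members had 52.5, 82.5, 65.1 and 69 and 74.1, 102.9, 63.7 and 64.2. The sums of the interferon-gamma list did not overlap between conditions in either class. Those of the members overlapped in Cd209a DC-like cells and were lower in both immunized mice in TBM-like cells. The TBM-like libraries held 23, 12, 110 and 343 cells. Their median share of members in single cells was 49.7, 83.1, 52.9 and 53.4 per 10000 UMIs and overlapped between conditions. The paper reported gene sets of type I and type II interferon signalling as raised by immunization in its putative TBM cluster, which was defined otherwise. In TBM-like cells Ifngr1 of the interferon-gamma list had 444.1, 404.7, 462.3 and 307.6 CPM and Cxcl9 282.6, 56.65, 729.1 and 1236 CPM. Beside these sums, C1qa had 137.1, 117.4, 392.5 and 615.7 CPM, Lyz2 10080, 12950, 16050 and 18440 CPM and the summed inflammatory macrophage-like markers 5.85, 3.56, 14.6 and 75.4 CPM in the Cd209a DC-like libraries, all higher in both immunized mice, and the inflammatory macrophage-like markers had 13.5, 24.3, 31.8 and 88.9 CPM in the TBM-like ones. The part of these cells in the sums was not tested. In Cd209a DC-like cells the transcription factor Irf1 came nearest to the threshold (2.07 ± 0.51, adjusted p = 0.0976), and the genes of this list that passed it were the chemokine Cxcl9 (4.06 ± 0.99) and the regulator of antigen presentation Ciita (1.98 ± 0.50), both in migratory DC-like cells.

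Migratory DC-like cells were the exception in which members passed the test. There 11 of 37 were called higher and 0 lower, against 1.35% of all genes called higher, and 32 of 37 were above in both immunized mice, against 26.4% of all genes. With the 4 libraries of the class fitted alone edgeR called 0, as it did with a minimum of 20 cells per library, which drops unimmunized mouse 2. Isg15 had 89.7, 57.2, 370 and 423 CPM (log2 fold change 2.27 ± 0.57, adjusted p = 0.0237), and Irf7 14, 7.16, 84.7 and 131 CPM (3.00 ± 0.75, adjusted p = 0.0233). Both immunized mice were several times above both unimmunized mice for each gene. Ifitm3 had 208.5, 42.9, 512.6 and 1287 CPM (2.53 ± 0.63), Ifi27l2a 253.9, 85.9, 570.3 and 962.1 CPM (1.96 ± 0.50), and Cxcl10 12.8, 7.16, 92.1 and 473.6 CPM (4.49 ± 1.23, adjusted p = 0.0428). Ifi204 had 6.99, 0, 39.9 and 109.4 CPM (3.57 ± 0.89), Oas1a 4.66, 0, 30.1 and 38.9 CPM (3.03 ± 0.69), and Oasl2 16.3, 7.16, 45.4 and 127.9 CPM (2.49 ± 0.59). The other calls were Rtp4, a chaperone of membrane receptors (4.66, 0, 16 and 58.3 CPM), and Oasl1 and Oas2, both at 0 in the unimmunized mice. Oasl1 had 7.37 and 18.5 CPM and Oas2 4.3 and 14.9 CPM in the immunized mice.

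Some genes of other cells were also higher in both immunized mice. Lyz2 had 1600, 844.4, 5143 and 13330 CPM in the migratory DC-like libraries and the complement gene C1qa of macrophages 22.1, 0, 119.1 and 777.3 CPM, while Fscn1, a defining marker of migratory DCs, had 1205, 1617, 1466 and 601. The summed classical monocyte-like markers had 146.7, 14.3, 155.3 and 341.6 CPM, the TBM-like ones 38.4, 0, 14.1 and 60.1 CPM, and the inflammatory macrophage-like ones 6.99, 0, 18.4 and 88.1 CPM. The TBM-like sums overlapped between the conditions, and the classical monocyte-like sums of unimmunized mouse 1 and immunized mouse 1 lay close together. The part of other cells in the calls was not tested. When the class was instead taken from Leiden clusters (80, 13, 141 and 62 cells in place of 84, 15, 170 and 165), Lyz2 was at 1744, 455.4, 1690 and 1782 CPM, close together in 3 mice and lower in unimmunized mouse 2, and 0 members were called. Isg15 then had 92, 60.7, 266.1 and 210.7 CPM, with a log2 fold change of 1.57 ± 0.48 (adjusted p = 0.169), while Irf7 had 29.2, 0, 30.2 and 25.7 CPM (0.28 ± 0.61) and Cxcl10 35.9, 7.59, 15.5 and 59.4 CPM (0.18 ± 0.70). Isg15 was thus still without overlap between the conditions, whereas Irf7 and Cxcl10 overlapped. The share of all members was 17.95, 10.25, 21.08 and 21.09 per 10000 UMIs with Leiden clusters. Under the gate it was 14.74, 10.02, 31.65 and 53.57, so most of the rise in the immunized mice was absent with Leiden clusters.

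**Figure D5:**
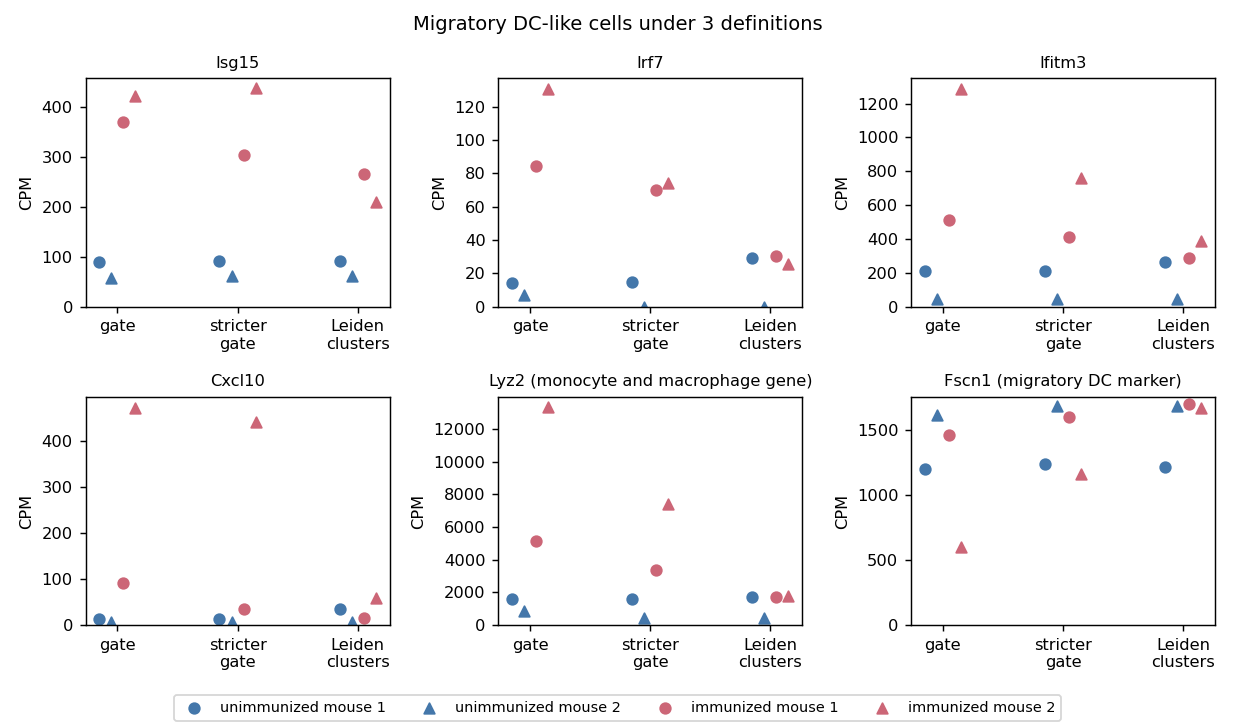
CPM of Isg15, Irf7, Ifitm3, Cxcl10, Lyz2 and Fscn1 in migratory DC-like cells of each mouse under the gate, a stricter gate and Leiden clusters. Isg15 of the immunized mice stays above that of the unimmunized mice in all 3 definitions (lowest immunized value 210.7 CPM, highest unimmunized value 92 CPM), while Lyz2 of immunized mouse 2 falls from 13330 to 1782 CPM.

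A stricter gate, with Lyz2 at 1587, 455.4, 3378 and 7396 CPM, called 3 members, Isg15 (2.20 ± 0.52, adjusted p = 0.0285) and Irf7 (2.57 ± 0.66, adjusted p = 0.0473) among them, and the HTODemux assignment of mice called 1, Isg15 (2.53 ± 0.53, adjusted p = 0.0251). Without either unimmunized mouse 0 members were called, the 15 cells of unimmunized mouse 2 being one of the 2 libraries on that side, and without immunized mouse 1 the count was 17 (5.95% of all genes in that fit) with 1 lower (4.4%). Without immunized mouse 2 it was 8 (0.731%). In single cells of the gate the median share of members was 11.2, 7.21, 14.5 and 35.7 per 10000 UMIs and the 90th percentile 21.8, 18.4, 51.6 and 112.8, so the immunized mice differed more in their highest cells than in their middle ones. DESeq2 called 9 members in this class, against 2.58% of the 4411 genes to which it gave an adjusted p.

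Whether the immunization effect differed between classes was tested by an interaction, the effect in 1 class against the mean effect in the other 11. No member passed in any of the 12 classes by edgeR (0 calls, against 0.00777% of the 115800 tests), with 21 members higher in migratory DC-like cells at an unadjusted p under 0.05 (3.99% of all genes). DESeq2 called 8 there, against 2.49% of the 2728 genes to which it gave an adjusted p. The nearest by edgeR were Oas2 (adjusted p = 0.058), Irf7 (3.26 ± 0.77, adjusted p = 0.0765) and Isg15 (2.38 ± 0.59, adjusted p = 0.0905), all in migratory DC-like cells. In that class DESeq2 and edgeR therefore gave different calls on the difference. For some members and classes the edgeR fit gave an SE far above the log2 fold change. Examples are Oas2 (-6.29 ± 13800) and Rsad2 (-4.78 ± 12000) in MSM-like cells and Ifi44 in Cd209a DC-like cells (0.139 ± 386). The lack of a call in such cases is no result on the difference.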

How the data were processed

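The authors deposited UMI counts per gene and barcode from Cell Ranger 4.0.0 on the mm10 build, and hashtag and antibody counts. Replicates are separate mice, read from the hashtag with at least 80% and at least 10 of the hashtag counts, and no other doublet caller was run. The members, marker lists and pathway lists were chosen with earlier results of these data known. Cells were gated per cell by marker scores into classes of at least 50 cells, and raw counts were summed per class and mouse where at least 5 cells were present. All 50 sums entered 1 edgeR 4.0.16 quasi-likelihood fit (TMM scaling, filterByExpr) with Benjamini-Hochberg adjustment over all genes at 0.05. The SE of a log2 fold change is its absolute value divided by the square root of the F statistic of that test. It is thus derived from the test and is a poor guide where libraries are at 0. DESeq2 1.42.0, HTODemux (Seurat 5.3.0), Leiden clusters (scanpy 1.11.5), gates, limits and omitted mice were alternatives, and the scripts were tested on simulated counts. Values per mouse are given for the 2 members of each role with the highest mean CPM, the 3 largest calls in each direction, and called pathway genes. Members chosen beyond that rule, after their values were seen, are Irf9, Slfn5, Isg20 and Cxcl10 where they are given without a call. Counts over the receptor and proximal signalling list are not reported here. The mouse links libraries: over all tested genes, deviations of classes from the same mouse correlated with a median of 0.0925 (-0.0823 to 0.441) in immunized mice. In unimmunized mice the median was 0.0292 (-0.0488 to 0.125). The link was not computed for the members or the interferon-gamma list alone.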

Additional observations from a re-analysis of the deposited data

How the results depend on the processing

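Counts of members called above or below the mean of the other classes stayed within 1.5 times the reported count in 258 of 312 comparisons with an alternative. Comparisons in which both counts were 0 are among the 258. The following counts did not stay within that range. By DESeq2 the members higher numbered 6 in Cd209a DC-like, 2 in alpha-beta T cell-like, 3 in cDC1-like and 0 in inflammatory macrophage-like cells, and with HTODemux they numbered 2 in the last. With no filter on low counts they numbered 20 in Cd209a DC-like and 8 in inflammatory macrophage-like cells, with a minimum of 20 cells 7 in neutrophil-like, with the stricter gate 8 in Cd209a DC-like, and with Leiden clusters 9 in MSM-like and 14 in inflammatory macrophage-like cells. The members lower numbered, with Leiden clusters, 19 in B cell-like, 9 in alpha-beta T cell-like, 15 in cDC1-like, 1 in inflammatory macrophage-like and 2 in neutrophil-like cells. With no filter they numbered 6, 14 and 1 in alpha-beta T cell-like, cDC1-like and inflammatory macrophage-like cells, with the stricter gate 1, 13 and 2 in alpha-beta T cell-like, cDC1-like and neutrophil-like cells, and with a minimum of 20 cells 11 in migratory DC-like cells. The cause was not tested for any of these.

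Leaving out 1 mouse in turn, the members higher ranged over 32 to 36 in classical monocyte-like, 20 to 34 in nonclassical monocyte-like, 4 to 15 in neutrophil-like, 8 to 18 in TBM-like, 6 to 22 in Cd209a DC-like, 2 to 5 in inflammatory macrophage-like, 3 to 7 in cDC1-like, 1 to 4 in alpha-beta T cell-like, 1 to 7 in MSM-like and 1 to 2 in migratory DC-like cells. The members lower ranged over 12 to 25 in innate-like T cell-like, 3 to 17 in NK cell-like, 3 to 18 in migratory DC-like, 1 to 16 in B cell-like, 1 to 13 in cDC1-like, 0 to 7 in MSM-like, 0 to 4 in alpha-beta T cell-like, 0 to 2 in neutrophil-like and 0 to 1 in inflammatory macrophage-like cells.

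For immunization, the members higher in migratory DC-like cells numbered 0 with its 4 libraries fitted alone, 1 with HTODemux, 0 with Leiden clusters, 0 with a minimum of 20 cells, 3 with the stricter gate and 17 with no filter, and ranged over 0 to 17 without 1 mouse, with 0 to 1 lower. Fitted alone, 1 was higher in Cd209a DC-like and in alpha-beta T cell-like cells. With no filter 7 were higher in cDC1-like, 2 in B cell-like and 1 each in Cd209a DC-like, alpha-beta T cell-like and nonclassical monocyte-like cells, and 1 was lower in TBM-like and in classical monocyte-like cells, where Leiden clusters gave 5. Without 1 mouse the members higher ranged over 0 to 12 in cDC1-like, 0 to 5 in B cell-like and 0 to 1 in Cd209a DC-like, alpha-beta T cell-like and nonclassical monocyte-like cells, and those lower over 0 to 4 in classical monocyte-like, 0 to 3 in neutrophil-like and 0 to 2 in Cd209a DC-like and nonclassical monocyte-like cells. For the difference of the effect between classes, DESeq2 called 8 members higher in migratory DC-like cells. With no filter 14 were higher there, 2 in cDC1-like and 1 in alpha-beta T cell-like cells, and 2 were lower in TBM-like and 1 in classical monocyte-like and in innate-like T cell-like cells. Without 1 mouse the ranges were 0 to 15 higher in migratory DC-like, 0 to 5 in cDC1-like and 0 to 1 in alpha-beta T cell-like cells, and 0 to 1 lower in neutrophil-like cells. The causes were not tested.

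Thinning to 1000 UMIs also gave every cell the same weight, whereas the summed share weights cells by their UMIs. It moved the share beyond its SD over mice to 15.7 per 10000 in NK cell-like and 46.6 in inflammatory macrophage-like cells. The neutrophil-like shares, whose SD was larger, became 129.4, 200, 115.2 and 81.3, from 82.2, 153.7, 72 and 70.7. Those of nonclassical monocyte-like cells became 108.9, 111.2, 98.6 and 94.1. After thinning the neutrophil-like share was thus the higher of these in all mice but immunized mouse 2. The mean share of single cells without thinning had the same order. It was 127.8, 179, 122.2 and 78.8 in neutrophil-like and 111, 113.6, 99.4 and 92.7 in nonclassical monocyte-like cells. The change is thus not shown to be one of depth. Single members turned in sign for Cmpk2 in MSM-like cells (-1.64 to 1.89 leaving out 1 mouse in turn), Dhx58 in alpha-beta T cell-like cells (-1.07 to 0.00604 leaving out 1 mouse in turn), Dhx58 in inflammatory macrophage-like cells (-0.22 with HTODemux), and, with Leiden clusters, Ifi204 (-0.20) and Ifi27l2a (-0.035) after immunization in migratory DC-like cells. With the mouse as a replicate block, 12 members were lower in cDC1-like cells in place of 8, and no count of calls moved by more than 1.5 times. With 2 mice a condition and libraries of as few as 5 cells, small differences between the conditions were not detectable at this depth.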

Other observations

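The 6126 cells that passed no gate, 951, 237, 1848 and 3090 from unimmunized mice 1 and 2 and immunized mice 1 and 2, had member shares of 47.1, 77.0, 68.2 and 75.0 per 10000 UMIs. Isg15 had 147.4, 220.3, 244.7 and 269 CPM in them, Cxcl10 82.2, 95.9, 240.4 and 374.1 CPM and Irf7 163.3, 268.3, 203.4 and 195.9 CPM. Cxcl10 was higher in both immunized mice, beside C1qa at 123.1, 218.5, 423.6 and 961.5 CPM, whose part in this was not tested, and Irf7 overlapped between the conditions.

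Counting the classes in which a member was called higher, Oasl2 and Slfn5 had the most, 6 of 13 each, and Ifi35 had 1, the classical monocyte-like class. Oas2 was called higher in 5 classes and lower in 0, and Rsad2 higher in 4 and lower in 0. Their lowest means were 1.36 CPM for Oas2, in innate-like T cell-like cells, and 1.5 CPM for Rsad2, in NK cell-like cells. Over all classes the means were 18.15 and 30.45 CPM, so the lack of a lower call does not show levels near the mean. Ifitm3 and Ifi27l2a were each called higher in 5 classes and lower in 5.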
